A study of Mus musculus with 8 samples.

Results

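Genes that divide inhibitory interneurons of the mouse hippocampus into subtypes were examined in a single-nucleus multiome data set, in which RNA and accessible chromatin were read from the same nuclei. The 9 genes Sst, Npy, Vip, Cck, Pvalb, Calb2, Nos1, Cnr1 and Lamp5 were chosen by name and made up 9 of 32285 gene features. They were measured in every cell type and, as pairs, inside nuclei of an inhibitory gate, which asked for at least 3 unique molecular identifiers (UMIs, counted RNA molecules) of Gad1 and Gad2 together and at most 1 UMI of Slc17a7. Gad1 and Gad2 encode the enzymes that make GABA, and Slc17a7 encodes the vesicular glutamate transporter of excitatory cells. The gate held 621 of 11518 nuclei (5.39%, 95% exact binomial interval 4.99 to 5.82%, counting error only). The nuclei came from wild-type C57BL/6J pups at postnatal day 21, whose dams, 8 weeks old by the labels (the methods give an age range that starts there), ate folic acid at 2 mg/kg (MF, the control diet) or 20 mg/kg (HF, the excess diet) from 2 weeks before mating until the end of lactation. The study's methods name male pups, and how many pups went into a library is not given in the sources used here. There were 2 libraries per diet, written here as MF1 and MF2 for the control diet and HF1 and HF2 for the excess diet, so spread between libraries may be technical as well as biological. The gate held 174, 125, 166 and 156 nuclei in these libraries.

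Hippocampal interneurons release GABA together with neuropeptides and other messengers, and their classes are told apart by these molecules. Cells that come from the medial ganglionic eminence of the embryo typically carry Sst or Pvalb, while cells from the caudal eminence typically carry Vip, Calb2 or Cck with the cannabinoid receptor Cnr1. Neurogliaform and ivy cells are known for Lamp5, Npy and Nos1, and they inhibit through slow, diffuse release of GABA.

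The members fall into peptide precursors (Sst, somatostatin; Npy, neuropeptide Y; Vip, vasoactive intestinal peptide; Cck, cholecystokinin), calcium-binding proteins (Pvalb, parvalbumin; Calb2, calretinin), an enzyme (Nos1, neuronal nitric oxide synthase), a receptor (Cnr1) and a membrane protein of inhibitory terminals (Lamp5). On GRCm38 their annotated genes lie at chr16:23889573-23890958 (Sst, minus strand), chr6:49822710-49829507 (Npy, plus), chr10:5639218-5647617 (Vip, plus), chr9:121489824-121495694 (Cck, minus), chr15:78191114-78206400 (Pvalb, minus), chr8:110137502-110168210 (Calb2, minus), chr5:117781032-117958840 (Nos1, plus), chr4:33924593-33948831 (Cnr1, plus) and chr2:136052239-136069917 (Lamp5, plus). Nos1 overlaps the annotated genes Gm37028 on its own strand and Gm26995 on the other, so part of its count may be uncertain. No other member overlaps an annotated gene. In 8 of 9 members a promoter was found in the RefSeq promoter table of GRCm38.p6, and Calb2 had no entry.

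Among the members whose accessibility differed in the comparisons reported below, promoters are shown for Sst, Vip, Npy and Cnr1. Pvalb, Cck and Lamp5 also differed and are not shown. Each promoter is given as the 250 bases before the RefSeq start, 5′ to 3′ on the gene's strand. Capitals mark the cyclic AMP response element TGACGTCA and the TATA letters TATAAA, each searched on both strands. They stand at chr16:23890845-23891094 (Sst, minus), chr10:5638968-5639217 (Vip, plus), chr6:49822460-49822709 (Npy, plus) and chr4:33924394-33924643 (Cnr1, plus, the second of 3 listed starts).
Sst: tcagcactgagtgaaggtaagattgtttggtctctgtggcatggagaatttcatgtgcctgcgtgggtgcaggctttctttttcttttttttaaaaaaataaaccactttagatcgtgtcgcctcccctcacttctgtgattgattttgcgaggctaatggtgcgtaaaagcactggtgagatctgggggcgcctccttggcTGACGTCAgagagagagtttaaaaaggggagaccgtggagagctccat
Vip: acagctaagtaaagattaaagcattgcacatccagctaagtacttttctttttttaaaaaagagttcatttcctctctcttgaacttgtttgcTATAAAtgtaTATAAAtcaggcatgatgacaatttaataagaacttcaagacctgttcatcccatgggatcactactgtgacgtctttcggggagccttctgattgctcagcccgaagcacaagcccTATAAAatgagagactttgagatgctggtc
Npy: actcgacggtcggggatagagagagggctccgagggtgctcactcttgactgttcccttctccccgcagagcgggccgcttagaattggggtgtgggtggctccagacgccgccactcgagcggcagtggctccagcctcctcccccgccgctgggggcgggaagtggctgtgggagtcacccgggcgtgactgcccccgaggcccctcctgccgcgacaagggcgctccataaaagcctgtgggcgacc
Cnr1: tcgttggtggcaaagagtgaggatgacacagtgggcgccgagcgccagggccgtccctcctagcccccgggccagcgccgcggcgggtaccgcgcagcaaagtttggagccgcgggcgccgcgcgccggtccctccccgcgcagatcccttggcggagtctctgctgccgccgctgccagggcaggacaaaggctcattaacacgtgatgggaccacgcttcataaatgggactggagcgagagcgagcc
The Sst promoter held 1 TGACGTCA, beginning at base -48 from the start, and Vip held 3 copies of TATAAA, at -157, -147 and -30. Neither set of letters occurred in the Npy or Cnr1 windows. Of 32851 RefSeq promoters of 300 bases, 1.79% held TGACGTCA and 13.62% held TATAAA. A match is a description of the letters and not a binding site.

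The 4 libraries held 39223075 to 47460174 UMIs, and their kept nuclei had a median of 6117 to 7053 UMIs. Any pair of libraries shared 8 to 20 cell barcodes. Gated nuclei had a median of 10892 UMIs, and 522 of them (84.1%) lay in clusters named inhibitory-like, from a marker list that includes Gad1 and Gad2, while 40 lay in excitatory clusters and 39 in mixed ones. The 8 inhibitory markers other than Gad1 and Gad2 summed to 19585 to 22711 CPM (counts per 1000000 UMIs) in gated nuclei of a library. A list of 27 excitatory markers, Slc17a7 left out, summed to 10687 to 14096 CPM there against 22905 to 26291 CPM in excitatory-like nuclei, and astrocyte markers reached 637 to 1314 CPM against 35220 to 41273 CPM in astrocyte-like nuclei. A doublet score over 0.05 was found in 109 gated nuclei (17.6%). At the edge of the gate, 55.7% of the 115 nuclei with exactly 3 Gad UMIs lay in inhibitory-like clusters, against 23.9% of the 259 nuclei with 2. Inside the gate the share positive for a member varied with the Gad count. From 3 Gad UMIs (115 nuclei, median depth 8655 UMIs) to 10 or more (204 nuclei, 13092 UMIs), it went from 5.22 to 41.2% for Npy, 1.74 to 25.0% for Lamp5 and 4.35 to 20.1% for Nos1, and from 14.8 to 1.96% for Vip. Shares over the whole gate, and the joint detection of Npy, Lamp5 and Nos1, hold this spread, whose part in them was not tested.

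Every member was detected in gated nuclei, and the share of nuclei that held it ranged from rare to common. A nucleus was called positive for a gene at 2 or more UMIs. Cck was positive in 38.3% of the 621 gated nuclei, Cnr1 in 35.7%, Sst in 27.1%, Npy in 23.5%, Pvalb in 11.8%, Lamp5 in 10.95%, Nos1 in 10.1%, Vip in 8.21% and Calb2 in 3.70%. Free RNA in droplets can give UMIs in nuclei that do not express a gene, so the shares were set beside those of glia, whose part of free RNA against expression was not tested. In 3166 glial nuclei (microglia, astrocyte, oligodendrocyte and progenitor clusters) with a median of 2753 UMIs, the positive share was 7.96% for Cck, 2.37% for Sst, 0.979% for Cnr1, 0.884% for Npy, 0.411% for Calb2, 0.347% for Pvalb, and 0.0316% for Vip and for Lamp5, and 0 of 3166 glial nuclei were positive for Nos1, which allows a share of up to 0.0948% (3 counts of the total). At 1 UMI or more, 29.6% of glial nuclei held Cck and 16.0% held Sst, against 65.5% and 44.3% of gated nuclei. UMIs per nucleus were 120 to 355 times the glial value for Vip and 22.2 to 36.0 times for Sst, but 3.55 to 6.85 times for Cck and 3.70 to 5.16 times for Calb2. Cck and Calb2 thus stood closest to the glial level, and glial nuclei were shallower than gated ones. Glial types were not alike, with a mean of 46.2 CPM of Cnr1 in progenitor-like against 11.7 CPM in oligodendrocyte-like nuclei.

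**Figure D1:**
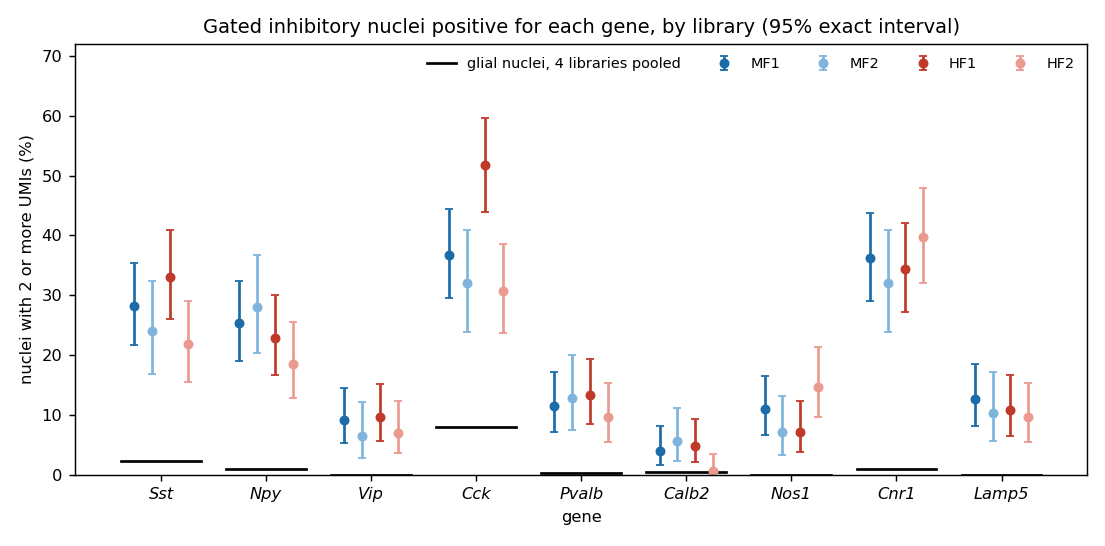
Percent of gated inhibitory nuclei with 2 or more UMIs of each member (y axis) for the 9 members (x axis), 1 point per library coloured by diet with its 95% exact binomial interval, and a line for glial nuclei of all libraries pooled. Cck and Cnr1 reached the highest shares and Calb2 the lowest, and the MF and HF points overlapped for every member except Npy.

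A small number of nuclei carried most molecules of each member. The 63 gated nuclei with the most Vip held 98.8% of all Vip UMIs in the gate, and the same number held 79.7% of Lamp5, 79.6% of Sst, 78.1% of Nos1, 74.8% of Calb2, 73.8% of Pvalb, 72.9% of Npy, 64.9% of Cnr1 and 51.7% of Cck UMIs. These nuclei were picked by the gene's own counts, which ranged from 135 UMIs in all for Calb2 to 3741 for Sst, and sparse counts raise such a share.

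Levels across cell types were compared within each gene as CPM of the summed nuclei of a library, which cannot separate fewer expressing nuclei from less RNA per nucleus. Sst reached 774, 300, 543 and 335 CPM in gated nuclei of the 4 libraries, always given here with the MF pair first. The next cell type, microglia-like nuclei, had a mean of 91.9 ± 27.1 CPM (SD, n = 4 libraries), and its range did not overlap the gated range. Npy stood at 284, 164, 164 and 122 CPM in gated nuclei, again apart from the next type, microglia-like nuclei at 32.7 ± 14.9 CPM. Vip had 175, 86.4, 122 and 66.2 CPM in the gate against 8.05 ± 9.77 CPM in vascular-like nuclei, the next in order. Lamp5 had 57.4, 31.2, 36.7 and 33.3 CPM against 14.0 ± 4.70 CPM in the excitatory clusters without a subtype name. In these 4 genes the gated range did not overlap that of the cell type below. The order leaves out 250 inhibitory-like nuclei that missed the gate (median 15276 UMIs), whose range overlapped the gated range for 8 of 9 members, with 410.7 ± 192 CPM for Sst and 171.3 ± 54.3 CPM for Vip. Pvalb had 12.7 to 27.3 CPM there and lay below the gated range.

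Pvalb, Nos1 and Cnr1 also had their highest mean in gated nuclei, but the ranges overlapped those of the next cell type. Pvalb, the calcium buffer of fast-spiking cells, had 63.6, 36.4, 58.1 and 30.2 CPM against 19.8 ± 26.8 CPM in vascular-like nuclei, which were few. Nos1 had 46.0, 25.3, 36.2 and 48.4 CPM against 26.2 ± 9.76 CPM in CA3-like nuclei. Cnr1 had 346, 279, 286 and 226 CPM, followed by immature dentate granule (DG-i)-like nuclei at 213.5 ± 45.1 CPM. CA3-like nuclei came next for Cnr1 at 110.9 ± 10.7 CPM and lay below the DG-i range in every library.

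Cck and Calb2 had their highest means in other cells, where the leading type overlapped the next in order. Single libraries departed from the order of means, with 376 CPM of Cck in vascular-like nuclei of HF2 and 172 CPM of Calb2 in Cajal-Retzius-like nuclei of HF1. Cck had 512, 433, 521 and 291 CPM in CA1-like nuclei, then 267.8 ± 97.0 CPM in CA3-like nuclei. By CPM, gated nuclei stood at rank 7 of 12 cell types at 171.4 ± 72.3 CPM. Vascular-like, microglia-like and Cajal-Retzius-like nuclei, ranked above the gate, were shallower. They held 1.05, 0.346 and 0.767 Cck UMIs per nucleus against 2.13 in gated nuclei. Calb2 had 126, 98.8, 118 and 63.8 CPM in DG-i-like nuclei, of which 904 lay outside the gate, and 79.4 ± 62.3 CPM in Cajal-Retzius-like nuclei. Gated nuclei had 18.3 ± 6.18 CPM of Calb2, rank 5 in order, and overlapped the oligodendrocyte progenitor-like and microglia-like nuclei above them. Those glial nuclei were shallower and held 0.0787 and 0.0355 Calb2 UMIs per nucleus, against 0.217 in gated nuclei. Calb2 is also known as a marker of young granule cells. Ranks below the leading types overlapped for most neighbours.

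**Figure D2:**
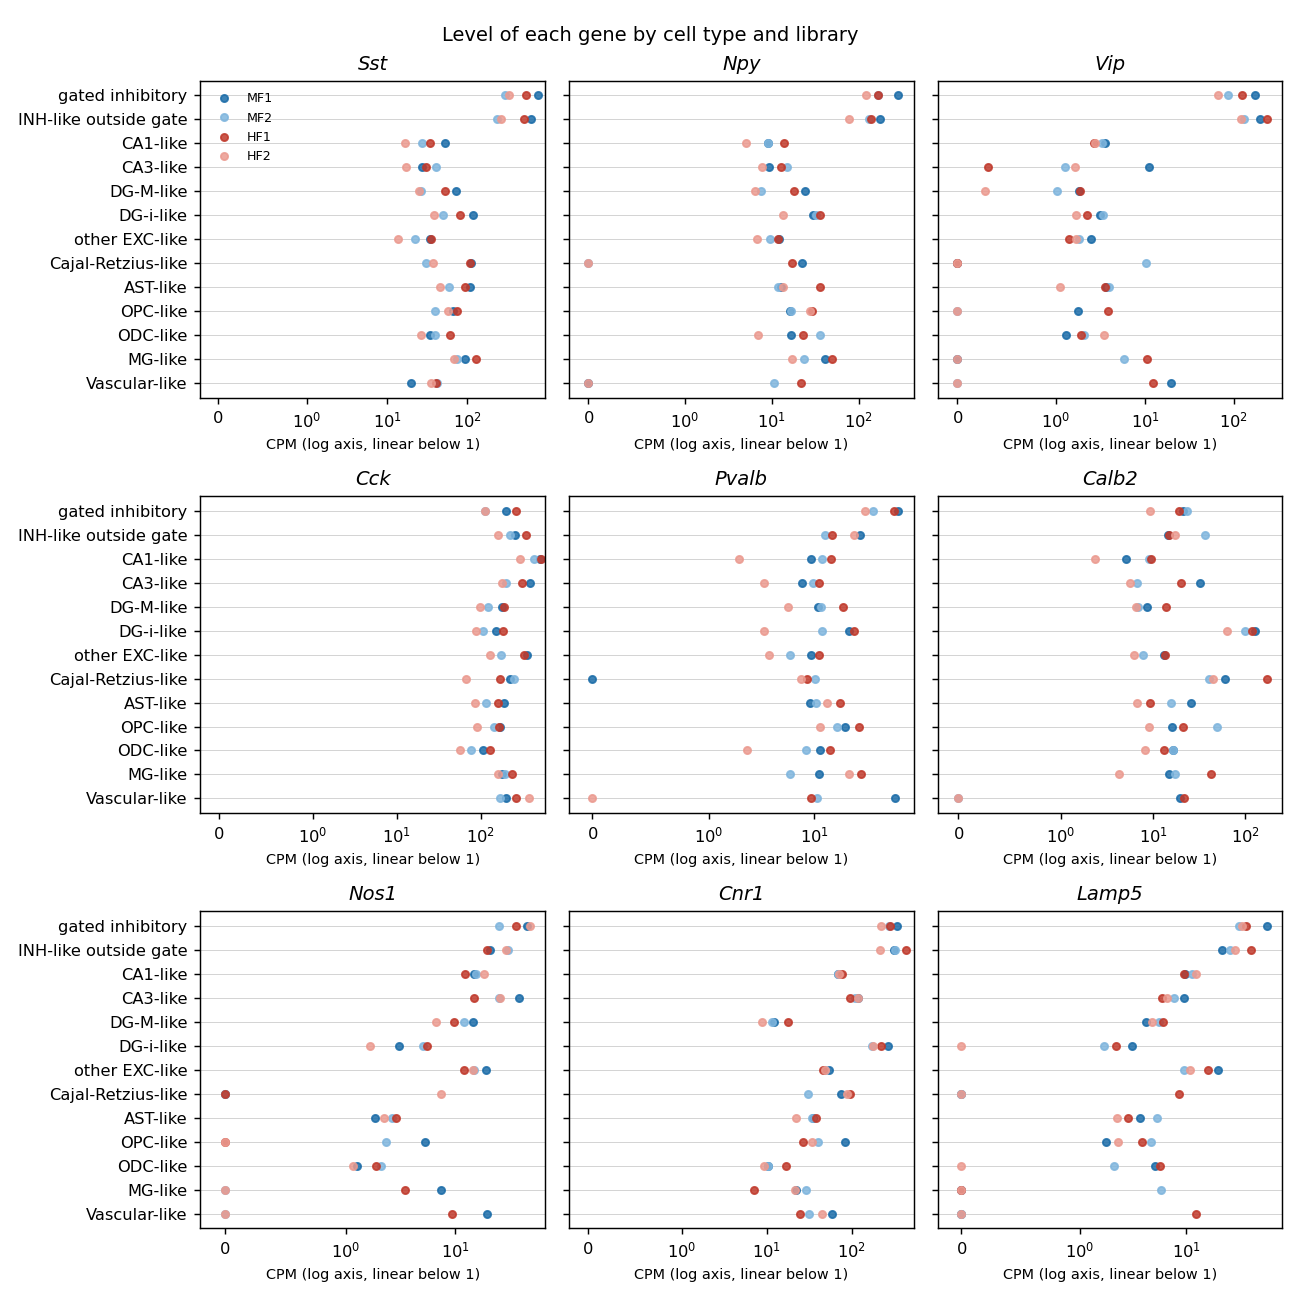
Level of each member (x axis, CPM, log scale that is linear below 1) by cell type (y axis), 1 point per library. Sst, Npy, Vip and Lamp5 stood apart in gated nuclei and in inhibitory-like nuclei outside the gate. The highest mean was in CA1-like nuclei for Cck and in DG-i-like nuclei for Calb2, both overlapping the next type.

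Gated nuclei were tested against all excitatory-like nuclei outside the gate, with the library as a block, to ask which members mark inhibition beyond the genes that set the gate. In this comparison 38.2% of 15658 genes were called (5985 genes). A call needs a fold of 1.2 or more and an FDR, the p-value adjusted over all genes tested, below 0.05. Of the 9 members, 7 were higher in gated nuclei, Cck was lower and Calb2 was not called. Excitatory-like nuclei had 52.3, 29.2, 41.4 and 18.5 CPM of Sst in the order given above, each far below the gated value of its library. The log2 difference was 3.71 ± 0.10 (SE) for Sst, 3.84 ± 0.11 for Npy and 5.59 ± 0.13 for Vip. Pvalb differed by 2.27 ± 0.15, Cnr1 by 2.06 ± 0.07, Lamp5 by 2.01 ± 0.13 and Nos1 by 1.28 ± 0.14, all with FDR of 5.4e-07 or less by edgeR. Cck fell by 0.65 ± 0.08 on the log2 scale (FDR = 5.9e-06), with 336, 209, 309 and 158 CPM in excitatory-like nuclei. Calb2 differed by 0.18 ± 0.17 (FDR = 0.43).

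Gene lists that fit the embryonic origin of interneurons moved with the gate. All 13 tested genes of the medial list were higher in gated nuclei, among them Nxph1 (log2 difference 6.98), the transcription factor Sox6 (5.61), which is known for medial fate, and Tac1 (4.49). Of 14 caudal list genes 11 were higher, among them Reln (5.14) and Adarb2 (3.76), and the lower ones, named after their values were seen, were the granule cell genes Prox1 (-0.98) and Calb1 (-0.50). Some list genes had also named clusters (Nxph1 and Adarb2 inhibitory, Sox6 oligodendrocyte progenitor, Prox1 and Calb1 excitatory, Reln and Ndnf Cajal-Retzius). These genes are thus not independent of the excitatory-like set, although the gate did not use them. The marker sums of positive and negative nuclei given below hold them too. Of 8 tested receptors of the members' peptides none was higher and 6 were lower, including the Vip receptor Vipr1 (-2.90) and the Sst receptor Sstr2 (-1.32). Partners in cannabinoid and nitric oxide signalling were higher for 3 and lower for 9 of 12, with Dagla, which makes the endocannabinoid 2-arachidonoylglycerol, at -1.37, Faah, which degrades anandamide, at -1.34 and Mgll, which degrades 2-arachidonoylglycerol, at 0.69. The other peptide and processing genes split into 5 higher and 7 lower of 14, with Pnoc at 4.83. The median log2 difference was 3.99 for the medial and 3.06 for the caudal list, -0.90 for the receptors, -0.62 for the signalling partners and -0.48 for the other peptides, against 0.00 over all genes tested.

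Within the gate, 1 or 2 positive members per nucleus were the most frequent. No member was positive in 104 nuclei (16.7%), 1 in 180 (29.0%), 2 in 195 (31.4%), 3 in 95, 4 in 39, 5 in 7 and 6 in 1. Nuclei without any positive member were shallower, with a median of 8696 UMIs against 12085 for those with 2. The most frequent sets were Cck with Cnr1 in 44 nuclei, Sst alone in 43, Cnr1 alone in 40, Cck alone in 33 and Sst with Npy in 27. Each of these sets was present in all 4 libraries.

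Nuclei positive for a member were then compared with gated nuclei that held 0 UMIs of it, summed per library, with the choosing gene left out. This was fitted where every library had at least 10 positive nuclei, which held for Sst, Npy, Cck, Pvalb, Cnr1 and Lamp5. Vip (8 positive nuclei in MF2), Calb2 (1 in HF2) and Nos1 (9 in MF2) were not fitted, and their values are given without a test. A pair of members fitted from both sides rests on the same nuclei and counts once. Reference nuclei are shared in large part between these comparisons, so their results are not independent.

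Sst-positive nuclei (168) carried more Npy and less Vip, Lamp5 and Cnr1 than Sst-negative nuclei (346). Npy stood at 574, 362, 266 and 219 CPM in Sst-positive and 162, 74.4, 88.9 and 54.1 CPM in Sst-negative nuclei. Each positive value lay above every negative one. Npy was itself positive in 38.1% of Sst-positive and 16.2% of Sst-negative nuclei. In this comparison 4.05% of 10024 genes were called (406 genes), and 4 of the 8 other members were among them. Npy rose by 1.87 ± 0.13 on the log2 scale (FDR = 1.6e-06). Vip fell by 2.72 ± 0.43 (FDR = 0.00092), with 119, 0, 8.53 and 6.20 CPM against 251, 154, 221 and 93.4 CPM, so MF1 alone held an appreciable level. Lamp5 fell by 2.37 ± 0.38 (FDR = 0.0011) and Cnr1 by 1.29 ± 0.19 (FDR = 0.00058), both lower in all 4 libraries. Cck (-0.54 ± 0.15, FDR = 0.056), Pvalb, Calb2 and Nos1 were not called.

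Of 13 genes of the medial list, 6 were higher in Sst-positive nuclei, 0 lower and 7 did not pass the test, and the higher ones included Elfn1 (2.18), Crhbp (2.14), Cort (1.89) and Satb1 (1.06). Cort encodes cortistatin, a close relative of somatostatin. Of 12 caudal genes 7 were lower, among them Adarb2 (-2.79), Kit (-2.13) and Cxcl14 (-1.83). The median was 0.75 for the medial and -1.40 for the caudal list against 0.02 over all genes. By the rule of largest change, the leading genes were Lama4 (4.37), Lypd6b (2.87) and Klf5 (2.43). Lypd6b had 115, 99.7, 128 and 153 CPM in positive and 16.0, 28.1, 12.5 and 11.3 CPM in negative nuclei, which did not overlap. Excitatory markers were lower in Sst-positive nuclei (6888 to 11240 against 11720 to 16520 CPM over libraries), inhibitory markers were lower too (13240 to 14260 against 22680 to 26630 CPM), and the median depth was higher (12162 against 10003 UMIs). Their part in these differences was not tested.

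Npy-positive nuclei (146) carried more Sst, Lamp5 and Nos1 and less Vip and Cnr1. Sst stood at 1345, 689, 1065 and 763 CPM in Npy-positive and 519, 90.9, 351 and 233 CPM in Npy-negative nuclei (396). Lamp5 had 131, 52.0, 70.7 and 81.1 CPM against 22.0, 21.5, 23.3 and 21.7 CPM. The groups did not overlap for either gene. Of 9383 genes 2.61% were called (245 genes), and 5 of the other 8 members were among them. Lamp5 rose by 1.91 ± 0.21 (FDR = 0.00020), Sst by 1.84 ± 0.18 (FDR = 6.4e-05) and Nos1 by 1.13 ± 0.23 (FDR = 0.012). Vip fell by 3.03 ± 0.40 (FDR = 0.00057) and Cnr1 by 0.59 ± 0.12 (FDR = 0.012). The Nos1 and Cnr1 calls were each lost in 3 of the 4 fits without a library (MF1, HF1 or HF2) and by DESeq2. DESeq2 also lost the Vip call (FDR = 0.066), and the Nos1 call was lost without nuclei over the doublet score. Excitatory markers were lower in Npy-positive nuclei (9206 to 11090 against 11770 to 15920 CPM) and the median depth was higher (12372 against 10208 UMIs). DG-i markers were lower too (616.8 to 730.3 against 755.5 to 855 CPM). The part of these shifts was not tested. Positive Lamp5 was found in 24.0% of Npy-positive and 6.57% of Npy-negative nuclei, and positive Sst in 43.8% and 20.5%.

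Lists of both origins held called genes in Npy-positive nuclei. From the medial list Nxph1 (0.82), Cort (1.87), Crhbp (1.45) and Chodl (4.02), a gene of long-range Sst cells, were higher and Kcnc2 (-0.47) and Satb1 (-0.49) lower of 13. From the caudal list Kit (1.51) and Id2 (0.96) were higher and none of 12 lower. The medians were 0.66 and -0.28 against 0.01 over all genes. The leading genes by size were Rtkn2 (2.58), Pappa (2.45) and Colec12 (2.29), and Pappa varied widely, with 20.9, 121, 76.2 and 10.1 CPM in the positive nuclei. The opioid peptide gene Penk was lower (-2.94).

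Lamp5-positive nuclei (68) carried more Nos1 and Npy and less Sst, Pvalb and Cnr1. No Vip UMI was counted among their 804001 UMIs, against 840 in the Lamp5-negative nuclei (502), which puts Vip at least 37.3-fold lower with a floor of 3 counts over the group. Sst had 74.8, 0, 43.1 and 21.0 CPM against 958, 364, 626 and 415 CPM. Nos1 had 161, 72.6, 57.5 and 68.4 CPM against 15.04, 19.2, 16.2 and 45.7 CPM, and Npy had 378, 211, 297 and 289 CPM against 245, 162, 118 and 106 CPM. Sst and Nos1 did not overlap between the groups, while the lowest positive Npy value fell below the highest negative one. Of 9904 genes 6.97% were called (690 genes), and 6 of the other 8 members were among them. Nos1 rose by 1.99 ± 0.35 (FDR = 0.00054) and Npy by 0.95 ± 0.18 (FDR = 0.0013). Sst fell by 4.03 ± 0.26 (FDR = 1.6e-09), Pvalb by 2.24 ± 0.38 (FDR = 0.00039) and Cnr1 by 0.92 ± 0.20 (FDR = 0.0043), the last not called without HF1. Npy was positive in 51.5% of Lamp5-positive and 19.1% of Lamp5-negative nuclei. For Cnr1 the share did not follow the level, at 38.2% against 34.9% and higher in 3 of 4 libraries, and Lamp5 in Cnr1-positive nuclei was at 0.38 on the log2 scale, not called, with a range of 0.083 to 0.86 when a library was left out and a call without HF1. Inhibitory markers were higher in Lamp5-positive nuclei (24150 to 29090 against 18190 to 21970 CPM), as was the Cajal-Retzius list, which includes Reln and Ndnf (811 to 2391 against 508 to 647 CPM), and progenitor markers were lower (1757 to 2004 against 2454 to 3114 CPM). Their part was not tested.

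In Lamp5-positive nuclei the caudal list had 4 higher and 4 lower of 12, with Kit (3.23), Id2 (2.60), Ndnf (1.93) and Reln (1.66) higher, all known from neurogliaform cells, and Npas1 (-3.11) among the lower. The medial list had 2 higher of 12, Grik1 (0.76) and, named after its value was seen, Nxph1 (0.68), and 8 lower, among them Satb1 (-3.44) and Kcnc2 (-2.47). The medians were -0.09 and -2.00 against -0.02 over all genes. Hcrtr2, an orexin receptor, had 374, 254, 326 and 384 CPM in positive and 30.1, 8.80, 22.0 and 24.8 CPM in negative nuclei, a log2 difference of 3.97 ± 0.19 (FDR = 5.0e-11). Car8 (4.13) and Gm3510 (3.92) were the other leading genes.

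Nos1-positive nuclei (63) were described without a test. Lamp5 had 204, 77.8, 89.3 and 50.6 CPM in Nos1-positive and 15.4, 22.2, 23.6 and 28.6 CPM in Nos1-negative nuclei, with no overlap. Lamp5 was positive in 31.7% of the former and 6.29% of the latter, Npy in 33.3% and 21.3% and Cck in 55.6% and 36.1%. The Lamp5 share was higher in 4 of 4 libraries. The Npy share was higher in MF1 (47.4 against 20.3%), MF2 (55.6 against 28.4%) and HF1 (25.0 against 19.9%) and lower in HF2 (17.4 against 18.0%). The Npy level was 217, 355, 387 and 135 CPM against 295, 163, 126 and 118 CPM, so it went against the share in MF1 and HF2. The Cck share was higher in 4 of 4 libraries. Its level was higher only in MF1, at 208, 95.1, 167 and 107 CPM against 191, 108, 273 and 112 CPM. Cnr1 had 149, 164, 95.3 and 124 CPM against 396, 301, 296 and 256 CPM, but its share did not follow, at 34.9% against 35.5%, higher in 2 libraries and lower in 2. Cajal-Retzius markers were lower in Nos1-positive nuclei (333.5 to 582 against 648.7 to 960 CPM), and their part was not tested.

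In Vip-positive nuclei (51), also not tested, the cannabinoid receptor was frequent. Cnr1 was positive in 82.4% of them and in 30.7% of Vip-negative nuclei (548), and the share was higher in all 4 libraries. Cnr1 had 912, 676, 658 and 563 CPM against 252, 262, 268 and 188 CPM, with no overlap. Calb2 was positive in 13.7% against 2.55%, at 112, 157, 20.8 and 69.2 CPM against 14.4, 17.7, 18.3 and 6.31 CPM. A single Lamp5 UMI was counted in Vip-positive nuclei, a ratio of 19.5-fold lower (95% counting interval 3.47 to 772), and Sst was positive in 7.84% against 28.8%. Vip-positive nuclei were shallower (median 7657 against 11353 UMIs) and richer in the excitatory marker list (18370 to 26580 against 10080 to 13550 CPM). Inhibitory markers were higher too (27230 to 37960 against 18250 to 22120 CPM) and Cajal-Retzius markers lower (31.5 to 227 against 628 to 990 CPM). The part of these shifts was not tested.

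Cnr1-positive nuclei (222) were rich in Vip and Cck and poor in Pvalb, Sst and Npy. Vip had 464, 261, 284 and 116 CPM in Cnr1-positive and 0, 0, 22.9 and 32.4 CPM in Cnr1-negative nuclei (304). Cck had 301, 156, 427 and 140 CPM against 149, 90.4, 157 and 81.8 CPM. Vip did not overlap between the groups, whereas Cck overlapped but was higher in each library. Of 9789 genes 6.44% were called (630 genes), and 6 of the other 8 members were among them. Vip rose by 4.31 ± 0.54 (FDR = 0.00021), Cck by 1.08 ± 0.13 (FDR = 0.00019) and Calb2 by 1.45 ± 0.39 (FDR = 0.043). Pvalb fell by 1.49 ± 0.22 (FDR = 0.00066), Sst by 1.17 ± 0.24 (FDR = 0.0077) and Npy by 0.86 ± 0.18 (FDR = 0.011). Single libraries went the other way, with Npy higher in Cnr1-positive nuclei of HF2 (104 against 96.0 CPM) and Calb2 lower in those of HF1 (17.1 against 19.1 CPM). Inhibitory markers were higher in Cnr1-positive nuclei (23620 to 30120 against 16950 to 19630 CPM) and progenitor markers lower (1745 to 2491 against 2649 to 3404 CPM), and their part was not tested. The Calb2 and Npy calls were each lost in 3 of 4 fits without a library (Calb2 without MF1, MF2 or HF2, Npy without MF1, MF2 or HF1), and Sst without MF2. DESeq2 also lost Calb2 and Sst. Without nuclei over the doublet score the Calb2 and Npy calls were lost. Calb2 was lost as well with nuclei under 5000 UMIs left out.

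The caudal list went with Cnr1, with 10 higher and 1 lower of 13, among them Adarb2 (3.77), Cxcl14 (3.66) and Npas1 (2.82), and a median of 2.82. The medial list had 10 lower and none higher of 12, with Cort (-2.90), Crhbp (-2.15), Sox6 (-1.82) and Lhx6 (-1.66) and a median of -1.43. The median over all genes was 0.00. All 3 tested receptor genes were higher, namely the Npy receptors Npy1r (2.51), Npy5r (2.34) and Npy2r (1.86). The peptide Penk (4.02) and the convertase Pcsk2 (0.68) were higher as well. Cadps2, which acts in the release of dense-core vesicles, had 502, 669, 741 and 656 CPM in positive and 16.8, 16.4, 36.3 and 55.8 CPM in negative nuclei (log2 difference 4.43 ± 0.21, FDR = 7.5e-08). Syt6 (5.43) and Gm39185 (4.56) were the other leading genes.

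Cck-positive nuclei (238) had the fewest called genes of the 6 comparisons against their negatives (214), and Cck was also the member with the highest share in glia. They were deeper in all 4 libraries (median 12559 against 9955 UMIs overall), and 20.2% against 14.5% lay over the doublet score, whose part was not tested. Of the genes tested, 0.634% of 8990 were called (57 genes), among them 2 of the other 8 members. Cnr1 had 506, 393, 387 and 324 CPM in Cck-positive and 227, 132, 178 and 215 CPM in Cck-negative nuclei, with no overlap, and rose by 1.08 ± 0.14 (FDR = 0.0011). Sst had 792, 211, 355 and 204 CPM against 903, 316, 888 and 316 CPM, lower in each library but overlapping, and fell by 0.70 ± 0.15 (FDR = 0.040). The share of Sst-positive nuclei was close, at 25.2% against 26.6%, lower in 3 libraries and higher in MF2 (25.0 against 23.1%). The Cnr1 call was lost without HF1 and the Sst call without HF1 or HF2, and the number of genes called fell from 57 to 3 without HF1 and rose to 152 without MF2. Of the caudal list Adarb2 (0.54) was higher of 11, and of the medial list Satb1 (-0.87) and Nxph1 (-0.43) were lower of 12, with medians of 0.22 and -0.45 against 0.01 over all genes. Frem1 (2.49), Syt6 (2.47) and Cadps2 (1.96) led by size, and Frem1 had 170, 130, 134 and 112 CPM against 16.3, 28.9, 22.2 and 27.2 CPM.

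Pvalb-positive nuclei (73) were lower in 6 of the other 8 members and higher in none, while 11.2% of 9818 genes were called (1099 genes). Lamp5 was down to 1 UMI in 999450, against 254 in the Pvalb-negative nuclei (474), a ratio of 45.9-fold lower (95% counting interval 8.17 to 1820). Cnr1 had 107, 89.4, 114 and 113 CPM against 421, 339, 359 and 248 CPM, with no overlap. Cnr1 fell by 1.72 ± 0.17 (FDR = 1.3e-06), Vip by 2.81 ± 0.49 (FDR = 0.00056), Sst by 1.54 ± 0.34 (FDR = 0.0046), Npy by 0.98 ± 0.18 (FDR = 0.0011) and Cck by 0.79 ± 0.17 (FDR = 0.0042). Sst was uneven, with 447, 24.8, 66.3 and 367 CPM in Pvalb-positive nuclei against 914, 287, 654 and 355 CPM, so that HF2 alone was not lower. The Cck call was lost without HF1 and by DESeq2, and DESeq2 also lost Vip and Sst. The Npy call was lost with positives at 3 or more UMIs. The Cck share was 42.5% in Pvalb-positive and 37.6% in Pvalb-negative nuclei, higher in 2 libraries and lower in 2, and from the other side Pvalb in Cck-positive nuclei was at 0.22, not called, with a share of 13.0% against 9.81%. Cajal-Retzius markers (318 to 476 against 626 to 1054 CPM) and DG-i markers (527 to 616 against 783 to 856 CPM) were lower in Pvalb-positive nuclei and the median depth was higher (13000 against 10404 UMIs), and their part was not tested. The medial list had 9 higher and 2 lower of 12, with Tac1 (2.24), Kcnc1 (1.83), Kcnc2 (0.92) and Sox6 (0.88) higher and Elfn1 (-2.45) and Grik1 (-1.22) lower, Kcnc1 and Kcnc2 encoding fast potassium channels. The caudal list had 10 lower of 12 and none higher, for example Ndnf (-3.17) and Kit (-2.57). The medians were 0.97 and -2.13 against 0.01 over all genes. Syt2, a calcium sensor of fast-releasing terminals, had 145, 69.6, 75.3 and 88.1 CPM against 7.69, 7.94, 4.15 and 5.92 CPM (3.83 ± 0.29, FDR = 7.4e-08), beside Akr1c18 (3.84) and Adamtsl5 (3.77).

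Calb2-positive nuclei numbered 23, with 7, 7, 8 and 1 in the libraries, and no test was made. Cnr1 was positive in 69.6% of them against 32.4% of Calb2-negative nuclei (524), and Vip in 30.4% against 5.92%. Markers of DG-i cells, where the mean of Calb2 was highest, were higher in Calb2-positive nuclei (879 to 1330 against 723.5 to 773 CPM). Oligodendrocyte (203 to 422 against 735 to 2030 CPM) and Cajal-Retzius markers (0 to 508 against 584 to 922 CPM) were lower. Their part was not tested. With a single nucleus in HF2, no statement on the diets can rest on these values.

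**Figure D3:**
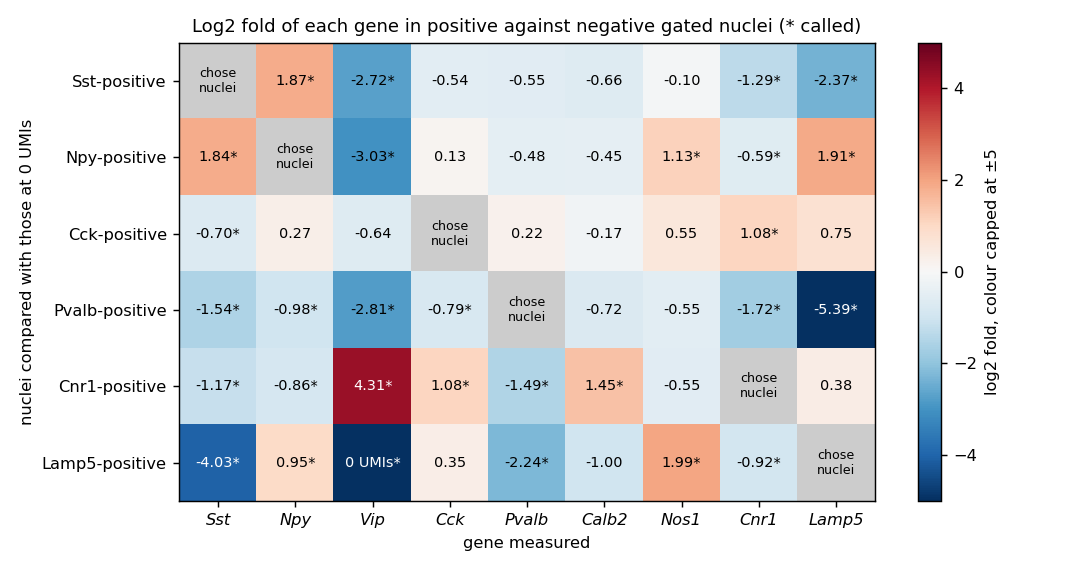
Fitted log2 difference of each member (columns) between gated nuclei positive and negative for a choosing member (rows), with called values starred, the choosing gene in grey and the colour limited to ±5. Npy was higher with Sst and with Lamp5, Nos1 with Npy and with Lamp5, and Vip, Cck and Calb2 with Cnr1, while no member was higher in Pvalb-positive nuclei.

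Chromatin gave a readout that did not choose the nuclei. Counts of accessible sites in peaks within 1 kb of a gene's annotated start were summed per library. The peaks had been called in each library on its own, so a window reads 0 where no peak was listed, which was the case for Sst in MF1, Vip in MF1 and MF2 and Nos1 in all 4. The Nos1 window lay at the annotated start, chr5:117781032, and the RefSeq promoter at chr5:117866589-117866838 lay outside it. In gated against excitatory-like nuclei 29.0% of 19781 promoters were called (5730), and 7 of the 8 members tested were among them. The Sst promoter had 0, 7.06, 9.68 and 5.92 CPM of chromatin counts in gated nuclei and 0, 0.758, 0.379 and 0.920 in excitatory-like nuclei, a log2 difference of 3.14 ± 0.52 (FDR = 2.7e-07). Vip had 5.41 and 2.06 in HF1 and HF2 against 0.347 and 0.307 (3.04 ± 0.86, FDR = 0.0033). The Vip value rests on 19 and 8 counts in gated nuclei of these libraries of 1 diet. With a library left out it was tested in only 2 fits. Npy had 14.6, 12.8, 7.12 and 7.72 against 4.39, 3.98, 2.62 and 2.98 (1.26 ± 0.25, FDR = 1.6e-05), with no overlap. Pvalb was higher by 1.33 ± 0.43 (FDR = 0.011) and Cnr1 by 0.36 ± 0.11 (FDR = 0.0048). Cck was lower (-0.41 ± 0.15, FDR = 0.026) and so was Lamp5 (-0.65 ± 0.26, FDR = 0.049), whose RNA was higher. The Lamp5 call was lost in each of the 4 fits without a library, the Cck call without MF1, MF2 or HF2, and the Pvalb call without MF2 or HF1. The Cck call was also lost with the 5 kb window. Calb2 did not pass (-0.07 ± 0.15, FDR = 0.79).

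Promoter counts outside the gate were read in the same way. The Pvalb window had 3.97 to 13.1 CPM in astrocyte, progenitor and oligodendrocyte-like nuclei against 1.49 to 5.49 in gated nuclei. Calb2 had 28.9 to 38.4 in DG-i-like nuclei, where its mean RNA level was highest. It had 21.4 to 25.0 in astrocyte-like nuclei, against 13.1 to 17.8 in the gate. Cnr1 had 44.99 to 53.9 in DG-i-like nuclei against 27.5 to 39.0 in gated nuclei.

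Nuclei positive for a member by RNA were also compared with negative ones for accessibility at its own promoter. For Sst the window had 19.3, 18.1 and 19.7 CPM in positive and 3.09, 6.90 and 1.64 in negative nuclei of MF2, HF1 and HF2. Npy had 31.8, 23.5, 14.3 and 18.2 against 6.14, 6.54, 4.51 and 6.65, and Cnr1 had 54.9, 72.8, 48.2 and 32.0 against 21.6, 19.9, 31.0 and 22.1. In all 3 genes every positive value exceeded every negative one in the libraries with a peak. A further Cnr1 peak was listed in MF1, MF2 and HF1 but not in HF2, so Cnr1 levels of different libraries rest on unlike peaks. Within each library the Cnr1 value was higher in positive nuclei. Over all promoters, however, the fits called very few. For Cnr1 0.129% of 15510 promoters were called (20), and its own promoter was among them, higher by 1.13 ± 0.21 (FDR = 0.00050), a call lost without MF1 or MF2. For Sst 0.0259% of 15451 were called (4) and its own promoter was not (2.39 ± 0.60, FDR = 0.18). For Npy 0% of 15570 were called by edgeR, 722 had an unadjusted p under 0.05 and its own promoter had 1.87 ± 0.39 (FDR = 0.14), no other tool being run on promoters. For Cck 0.00663% of 15090 were called (1) and for Pvalb 0.0192% of 15601 (3), with own promoters at 0.61 ± 0.35 and 0.80 ± 0.86, neither called. For Lamp5 0.0189% of 15877 were called (3), and its own window was too sparse to be tested. Vip had 50.8 and 25.5 CPM in positive and 1.99 and 0.570 in negative nuclei of HF1 and HF2, without a test.

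**Figure D4:**
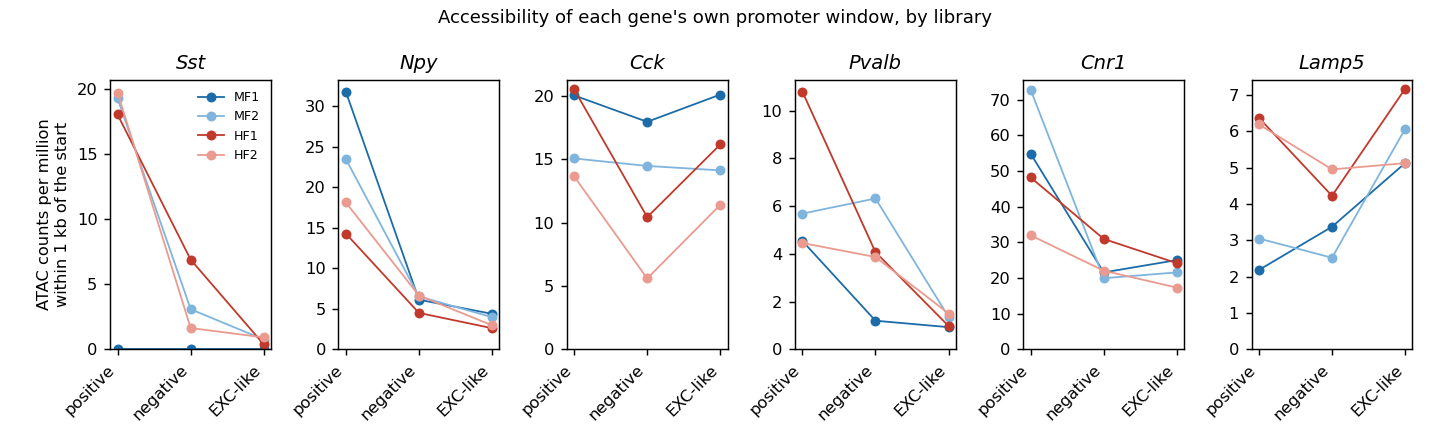
Chromatin CPM (y axis) in the promoter window of each member for gated nuclei positive and negative for that member and for excitatory-like nuclei, 1 line per library. Positive nuclei lay above negative ones for Sst, Npy and Cnr1 in every library with a listed peak, and libraries without a peak read 0.

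The effect of the maternal diet on the members was examined last. Among gated nuclei, 0% of 11807 genes were called by edgeR between HF and MF, with 256 at an unadjusted p under 0.05 and 1 gene called by DESeq2, and none of the 9 members was called (FDR = 1.0 for each). The count of genes called was 37 with the replicate block, 30 without the low-count filter and 9 to 45 with a library left out, with no member among them. Npy showed the lowest unadjusted p among them (0.026), with 284 and 164 CPM in MF against 164 and 122 CPM in HF, a log2 difference of -0.60 ± 0.24. MF2 and HF1 were equal to 3 digits, and HF1 was the higher before rounding, so the diets overlapped. Calb2 had 21.2 and 23.4 CPM against 19.1 and 9.38 CPM and was the member whose diets did not overlap in level. Calb2 differed by -0.60 ± 0.34, Vip by -0.43 ± 0.30, Lamp5 by -0.31 ± 0.26, Cnr1 by -0.25 ± 0.21, Sst by -0.24 ± 0.34 and Pvalb by -0.15 ± 0.29, while Nos1 and Cck both had 0.28 (SE 0.28 and 0.32). With 2 libraries a diet, differences of this size did not pass the test. None of the listed lineage, peptide, receptor or signalling genes was called either.

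Shares of positive nuclei were compared as well. Npy was positive in 25.3% and 28.0% of gated nuclei in MF and 22.9% and 18.6% in HF, a difference of -5.90 percentage points, and was the only member whose diets did not overlap at 2 or more UMIs. Thinned to 3000 UMIs per nucleus, Npy overlapped (-3.38 points), while Pvalb, Calb2, Nos1 and Lamp5 did not. Few nuclei were positive there, with 5, 3, 3 and 2 for Pvalb and 3, 3, 0 and 0 for Calb2. Nos1 had 3, 1, 1 and 1 and Lamp5 11, 6, 6 and 2, with the MF pair first. Under the strict gate Npy had -12.2 points and Calb2 -5.03 (4, 6, 2 and 0 positive nuclei), neither overlapping. For Npy at 2 or more UMIs in all gated nuclei, the exact two-sided permutation test gave p = 0.33. That is the smallest value 4 libraries allow, and the adjusted p was 1 over the 9 members. By the same test, the members that did not overlap after thinning or under the strict gate had an adjusted p of 0.75. Cck had 36.8% and 32.0% in MF against 51.8% and 30.8% in HF, and Sst had 28.2% and 24.0% against 33.1% and 21.8%. For both genes the libraries numbered 1 were higher than those numbered 2 in either diet, and the share of glial nuclei with at least 1 UMI followed the same order, at 17.5, 11.8, 20.7 and 11.5% for Sst and 32.5, 27.0, 34.9 and 21.8% for Cck in MF1, MF2, HF1 and HF2. The part of free RNA in these shares was not tested. The remaining differences were 2.94 points for Cnr1, 1.93 for Nos1, 0.55 for Vip, -0.71 for Pvalb, -1.29 for Lamp5 and -2.08 for Calb2, all with overlapping libraries. With a library left out, Cnr1 ranged from 0.234 to 5.64 points, Lamp5 from -2.41 to -0.171 and Npy from -8.05 to -3.75.

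**Figure D5:**
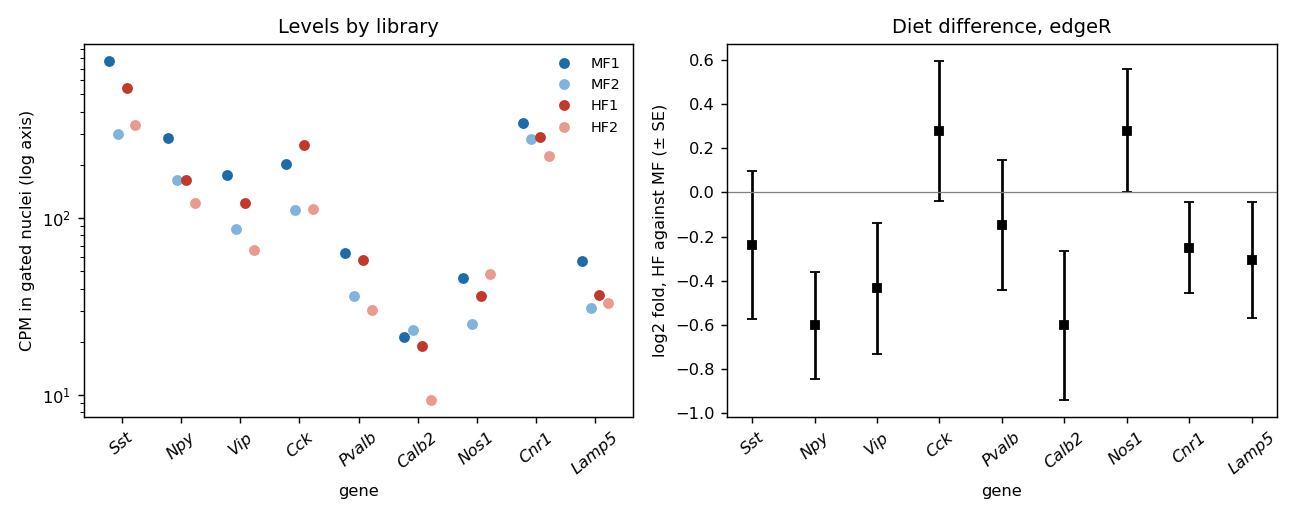
Level of each member in gated nuclei by library (left, CPM, log axis) and the edgeR log2 difference of HF against MF with its SE (right). The diets overlapped for every member except Calb2, with 21.2 and 23.4 CPM in MF against 19.1 and 9.38 CPM in HF.

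In excitatory neurons no member passed the diet test. The called share was 0% of 11454 genes in CA1-like, 0% of 12090 in CA3-like, 0% of 12444 in mature dentate granule-like (DG-M) and 0% of 9218 in DG-i-like nuclei by edgeR. The counts at an unadjusted p under 0.05 were 203, 232, 223 and 149, and DESeq2 called 0, 1, 0 and 0 genes. Members tested numbered 8, 8, 8 and 6, and none was called. Cck in CA1-like nuclei, where its mean was highest, had 512 and 433 CPM in MF against 521 and 291 CPM in HF (-0.18 ± 0.22). Calb2 in DG-i-like nuclei had 126 and 98.8 CPM against 118 and 63.8 CPM (-0.26 ± 0.27). Sst in CA1-like nuclei had the lowest unadjusted p (0.0498) at -0.63 ± 0.30, with 52.9 and 27.5 against 34.2 and 16.7 CPM. Its mean of 32.8 CPM there lay below that of microglia-like (91.9), astrocyte-like (77.6) and progenitor-like nuclei (59.9). Those glial nuclei were shallower, and per nucleus they held 0.172, 0.217 and 0.208 Sst UMIs against 0.459 in CA1-like nuclei. The part of free RNA in the Sst value was not tested. The Sst difference ranged from -1.17 to -0.11 with a library left out and was called in 1 of those 4 fits. Cck in CA1-like (-0.58 to 0.13) and Calb2 in DG-i-like nuclei (-0.72 to 0.041) changed sign.

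Whether the company Sst keeps differed between diets was tested as an interaction. By edgeR 0% of 10024 genes were called, 480 had an unadjusted p under 0.05 and DESeq2 called 0. The interaction was -0.21 ± 0.27 on the log2 scale for Npy (FDR = 0.97). Vip and Calb2 had -2.56 ± 0.93 and 1.59 ± 0.67 (FDR = 0.94 for both). Vip ranged from -3.32 to 5.44 with a library left out, positive without MF1, and was called without MF2 or HF2. Nos1 had 14.0, 15.9, 54.9 and 74.4 CPM in Sst-positive and 71.8, 37.8, 26.2 and 34.0 CPM in Sst-negative nuclei, lower with Sst in both MF and higher in both HF libraries. Its interaction was 3.04 ± 0.45 and was not called by edgeR (FDR = 0.128), nor without MF1 (2.35) or by DESeq2, but it was called without MF2, HF1 or HF2, up to 3.50. A single nucleus gave 29 of 45 Nos1 UMIs in HF1 and another 16 of 36 in HF2, and without it the level was 20.2 and 42.8 CPM, the former below the 26.2 CPM of Sst-negative nuclei.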

How the data were processed

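RNA and accessible chromatin were read from the same nuclei with 10x multiome libraries. The authors aligned reads to mm10 with Cell Ranger ARC 2.0.1 and deposited filtered matrices per library. RNA values are UMI counts per gene, and chromatin values are deposited counts of transposition sites per peak, peaks being called in each library on its own. Of 14297 nuclei, 11518 were kept here where genes numbered 500 to 7000, chromatin counts 1000 to 70000 and mitochondrial UMIs stayed below 2%. Doublets were scored and kept in the main analysis. Clusters (Leiden, scanpy 1.11.5, 3000 variable genes, 20 components, resolution 0.8) were named from marker lists, with naming thresholds set after the clusters had been seen.

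Counts were summed per library and tested with edgeR 4.0.16 (quasi-likelihood F test, TMM, filterByExpr), the library being a block where positive and negative nuclei were compared. FDR is the Benjamini-Hochberg adjusted p over all genes tested, and a call needs FDR under 0.05 and at least 1.2-fold (promoters FDR only). DESeq2 1.42.0 was the other tool. Promoter windows cover 1 kb on either side of the GENCODE start on GRCm38. The tests were run on simulated data first. Named genes are the members, up to 6 called genes per list with the smallest p, and per comparison the 3 other called genes with the largest log2 difference that were higher in all 4 libraries and had 20 CPM or more in positive nuclei on average. The 5 lists are medial lineage, caudal lineage, other peptides and processing, receptors of the members' peptides, and cannabinoid and nitric oxide partners. The members and lists were chosen with earlier results of these data known. Replicates are libraries. In diet tests without a block, p-values measure only the spread between libraries. With the library as a block, they measure only how the difference within a library varied over libraries. Intervals cover counting error only.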

Additional observations from a re-analysis of the deposited data

Results flagged for a closer look

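A choosing member and a measured member made 48 combinations, in which a pair fitted from both sides appears in either direction. In 2 of them summed levels moved in opposite directions in the 2 diets, in both libraries of each. Nos1 in Sst-positive against Sst-negative gated nuclei had a mean log2((CPM + 1) ratio) of -1.74 in MF and 1.07 in HF, a difference of 2.81. The edgeR interaction was 3.04 ± 0.45 with FDR = 0.128, so it was not called, and it was called in 3 of the 4 fits with a library left out (2.35 to 3.50). In HF1 the direction rested on 1 nucleus with 29 of 45 Nos1 UMIs, without which Sst-positive nuclei had 20.2 CPM against 26.2 CPM in Sst-negative nuclei. Npy in Cck-positive against Cck-negative gated nuclei had -0.443 in MF and 1.09 in HF, a difference of 1.53, with 265, 121, 222 and 180 CPM in positive and 298, 200, 96.8 and 90.1 CPM in negative nuclei of MF1, MF2, HF1 and HF2. The share of Npy-positive nuclei did not follow in MF1, where it was 32.8% with and 22.6% without Cck. The difference between diets was not tested for Npy. Read from the other side, neither pair showed this pattern. Sst had 42.5, 484, 226 and 256 CPM in Nos1-positive and 1001.5, 317, 627 and 354 CPM in Nos1-negative nuclei. Cck had 258, 93.6, 252 and 124 CPM in Npy-positive and 173, 109, 272 and 115 CPM in Npy-negative nuclei.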

How the results depend on the processing

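Of the 45 called member values, 200 of 214 refits under other settings kept direction and call and 14 lost the call, and with 1 library left out 149 of 178 kept it and 29 lost it, none changing sign. The Vip, Calb2 and Nos1 fits were not run, since a library had under 10 positive nuclei. With 2 libraries per diet, leaving out 1 leaves a lone library that is assumed to vary like the rest, and such fits say little on stability. Causes of the changes below were not tested.

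The diet labels share only a replicate number. Same-numbered libraries deviated together with r = 0.151 over 11807 genes, and a fit with the replicate block gave 37 calls by edgeR in gated, 8 in CA1-like, 3 in CA3-like, 3 in DG-M-like and 1 in DG-i-like nuclei. Without the low-count filter these counts were 30, 10, 8, 7 and 6, with 28 for the interaction, 408 for Npy and 205 for Cck. DESeq2 called 1 gene in gated and 1 in CA3-like nuclei by diet, and 227 for Sst, 88 for Npy, 30 for Cck, 551 for Pvalb, 327 for Cnr1 and 456 for Lamp5. With positives at 3 or more UMIs, Cck gave 109 and Pvalb 730. With a 5 kb window the promoter counts were 22 for Sst, 2 for Npy, 0 for Cck, 13 for Pvalb, 73 for Cnr1 and 17 for Lamp5.

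With 1 library left out, genes called by diet ranged from 9 to 45 in gated, 2 to 23 in CA1-like, 6 to 16 in CA3-like, 2 to 10 in DG-M-like and 1 to 8 in DG-i-like nuclei, and 0 to 36 for the interaction. They ranged from 128 to 219 for Npy, 3 to 152 for Cck, 658 to 912 for Pvalb and 447 to 610 for Lamp5. Promoter counts ranged from 0 to 6 for Sst, 0 to 1 for Npy, 0 to 1 for Cck, 3 to 25 for Cnr1 and 0 to 7 for Lamp5, and were 0 for Pvalb in all 4 fits.

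Differences in positive share between diets (HF minus MF, percentage points) changed sign in several settings. At 1 or more UMIs Pvalb had 0.998 and Nos1 -1.05, and at 3 or more Vip had -0.691, Pvalb 0.3795 and Nos1 -0.102. Thinned to 3000 UMIs, Sst had -0.582, Vip -1.37 and Nos1 -0.658. The strict gate gave Sst -4.25 and Lamp5 0.928, and leaving out nuclei over the doublet score gave Vip -0.411 and Lamp5 0.795. With 1 library left out the range was -4.29 to 7.05 for Sst, -0.851 to 1.95 for Vip, -3.62 to 17.4 for Cck, -2.53 to 1.11 for Pvalb, -4.17 to 0.00778 for Calb2 and -1.83 to 5.68 for Nos1.

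Log2 differences by diet in gated nuclei that changed sign with 1 library left out ranged from -0.61 to 0.14 for Lamp5, -0.87 to 0.085 for Vip, -0.63 to 0.24 for Pvalb, -0.72 to 0.51 for Sst, -0.0132 to 0.71 for Nos1 and -0.36 to 0.71 for Cck. Without nuclei over the doublet score Lamp5 had 0.043 and Nos1 -0.0127. Calb2 in gated against excitatory-like nuclei ranged from -0.035 to 0.33, its promoter from -0.16 to 0.023 and to 0.19 with the 5 kb window, and Nos1 in Sst-positive nuclei from -0.62 to 0.56. None of these was called. Of the values not called in the main fits, sign changed with a library left out for 6 of 9 by diet in gated nuclei, 24 of 30 by diet in excitatory types, 6 of 8 in the interaction, 7 of 20 between gated, positive and negative sets and 14 of 35 at promoters and a call appeared for 0 by diet in gated nuclei, 1 by diet in excitatory types, 2 in the interaction, 3 between gated, positive and negative sets and 0 at promoters. For the interaction, Vip changed sign (-3.32 to 5.44) and was called without MF2 or HF2, and Nos1 kept its sign and was called without MF2, HF1 or HF2, both also without the low-count filter. The share differences of Npy (-8.05 to -3.75), Cnr1 (0.234 to 5.64) and Lamp5 (-2.41 to -0.171) kept their sign with a library left out. The diets overlapped for Npy after thinning. Calb2 did not overlap at 3 or more UMIs, under the strict gate, after thinning and without nuclei over the doublet score. In these settings no library held more than 7 Calb2-positive nuclei.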
